A study of Homo sapiens with 14 samples.

Results

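The tripartite motif (TRIM) genes were followed through RNA-seq of HT-29 cells, an established human colorectal carcinoma line. Members were the genes of the count table whose symbol is TRIM with a number and at most 1 letter and whose transcript types include protein_coding, which gave 59 of 36555 gene IDs. Of these, 53 passed a filter on low counts, in a table of 22179 genes tested. A further 10 genes with TRIM in their names fell outside the rule: the pseudogenes TRIM53AP, TRIM53BP, TRIM26BP and TRIM80P, the antisense RNAs TRIM31-AS1 and TRIM52-AS1, the readthrough genes TRIM6-TRIM34 and TRIM39-RPP21, TRIML2, and TRIM55, whose only listed type is retained_intron.

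The 14 libraries formed 6 groups: 3 control libraries given 0.1% DMSO, 2 given 20 uM ferrostatin-1, 2 given 20 uM liproxstatin-1, 2 given TNF, 3 given TNF with 20 uM ferrostatin-1, and 2 given TNF with 20 uM liproxstatin-1. The labels give recombinant human TNF at 100 ug/ml, and treatment lasted 72 h. TNF was used to induce apoptosis, and the stated question was why the compounds differ in their effect on it. Ferrostatin-1 and liproxstatin-1 are lipophilic antioxidants that inhibit ferroptosis, a death driven by lipid peroxidation. Ferrostatin-1 is an aromatic amine with an ethyl ester, and liproxstatin-1 has a spiroquinoxaline core with a chlorobenzyl group. All libraries came from the same line, and the replicates are described as technical, so the p-values below measure only the spread between these libraries.

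TRIM proteins are built around a RING finger, B-box zinc fingers and a coiled coil, followed by a C-terminal domain that differs between subfamilies and often binds the target. The RING finger recruits a ubiquitin-loaded E2 enzyme, so most members are E3 ubiquitin ligases. Many act in innate immunity, where they bind viral proteins or attach ubiquitin to sensors and adaptors of the interferon and NF-kappaB pathways, and a number of them are themselves interferon-induced genes. The gene ontology column of the deposited table gave a ubiquitin ligase or transferase term to 50 of the 59 members. The 9 without one were TRIM8, TRIM16, TRIM16L, TRIM29, TRIM42, TRIM46, TRIM65, TRIM66 and TRIM67, of which TRIM16, TRIM29 and TRIM66 are known to lack a RING finger. The term does not check the ligase label, since TRIM44, which has no RING finger, carries it and TRIM8, a ligase, does not.

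Total counts ran from 59913850 to 75838597 per library. The 8 epithelial markers summed to between 8900 and 13500 CPM (counts scaled by the library total), led by KRT8 and KRT18, and the 7 leukocyte markers in the table summed to 787 to 1160 CPM. Nearly all of the latter was lysozyme (LYZ), at 762 to 1140 CPM, with CD68 at 7.1 to 21.1 and CD14 at 8.29 to 12.6 CPM, while PTPRC, NKG7 and CSF1R did not exceed 0.0551, 0.221 and 0.356 CPM. The 6 fibroblast markers summed to 3.78 to 13.6 CPM in the control libraries, 24.5 to 44.9 in those with TNF and 2.48 to 4.5 in those with TNF and ferrostatin-1. KRT81 stood at 43.7 to 57.1 CPM in the control libraries, the TNF libraries and ferrostatin-1 library 1, and at 1.05 to 14 CPM in the others. The part of either in the TRIM values was not tested. The TNF libraries, whose columns are numbered 1 and 3, stood further apart than any other pair: chi-square per degree of freedom over genes was 203.4 for them and 14.86 to 74.29 within the other groups. Library 3 was at least 2-fold above library 1 for 14.4% of the 14008 genes with a control mean of at least 1 CPM, and library 1 was that far above library 3 for 0.7%.

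On the deposited FPKM scale, which divides by gene length and so lets genes be compared, levels were taken from the 8 libraries of the control group and the groups given TNF and a compound. There 14 members averaged 10 or more, 29 lay between 1 and 10, and 10 of those tested lay under 1. TRIM28, the corepressor recruited by KRAB zinc finger proteins and also called KAP1, led at 112 FPKM (101 to 122 over the 8 libraries). TRIM31, a ligase abundant in gut epithelium that acts on MAVS and the NLRP3 inflammasome, followed at 63.8 FPKM (36.1 to 79.3). TRIM14, an adaptor at MAVS, and TRIM25, which ubiquitinates the RNA sensor RIG-I, came next at 29.8 and 29.4 FPKM. The other members at 10 FPKM or more were TRIM29, TRIM26, TRIM21, TRIM44, TRIM8, TRIM56, TRIM47, TRIM27, TRIM5 and TRIM16, between 26.5 and 10.7 FPKM. From TRIM14 to TRIM16 the library ranges of neighbours in this order overlapped, so those neighbours cannot be ordered, while TRIM28 lay above TRIM31, and TRIM31 above TRIM14, in every library.

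**Figure D1:**
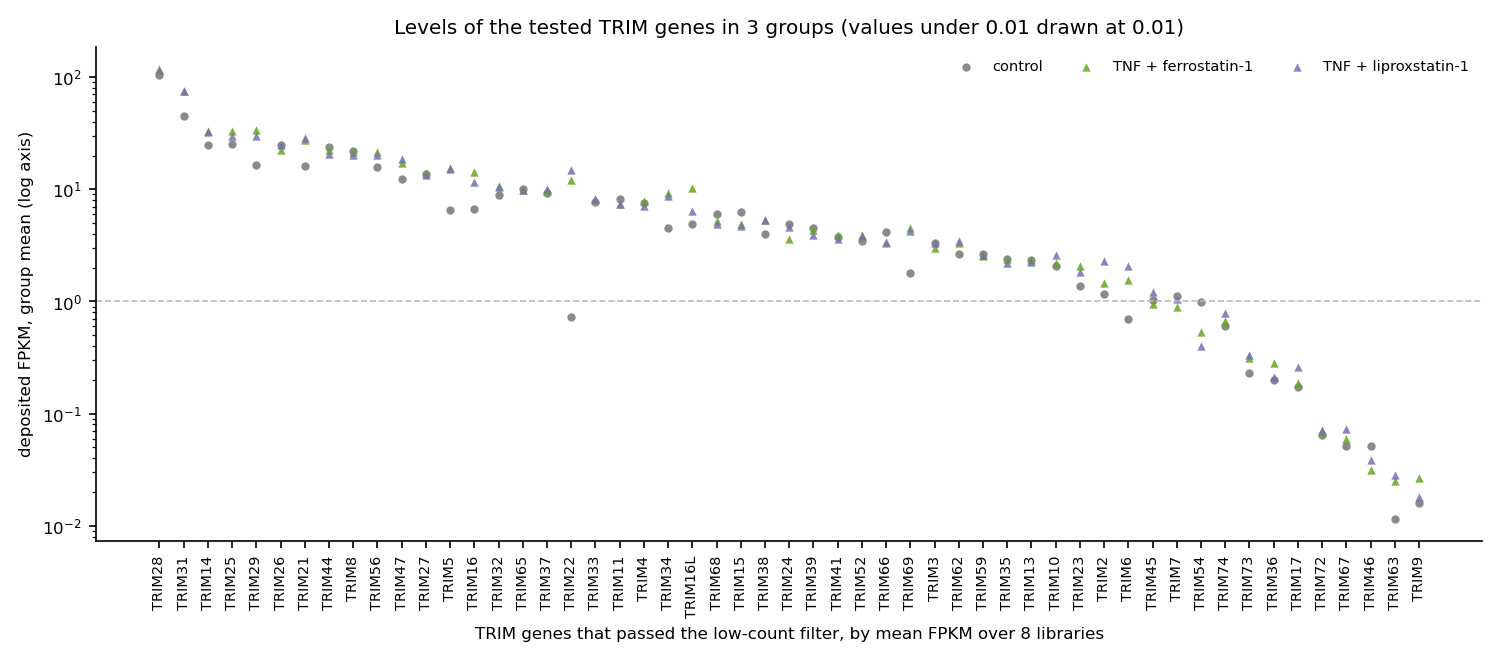
Mean deposited FPKM (log axis) of each tested TRIM gene in the control group (circles) and the groups with TNF and a compound (triangles), ordered by the mean over 8 libraries. The points of most genes lie close together, TRIM22 splits into a circle at 0.731 FPKM and triangles at 12.1 and 15.0, and a dashed line marks 1 FPKM.

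The 6 members that did not pass the filter were TRIM40, TRIM42, TRIM49, TRIM50, TRIM58 and TRIM71. None had more than 18 counts over all 14 libraries, and none exceeded 0.00278 FPKM on average. TRIM50 had no count in any library. Expression here means passing that filter, and 48 members had at least 1 CPM in 2 or more libraries. TRIM63, a muscle ligase, passed the filter with counts in only 3 libraries, at 0.0929, 0.208 and 0.15 CPM, and no fold change is given for it. TRIM28 was among the steadiest members, at 419 to 522 CPM over the 14 libraries, a ratio of highest to lowest of 1.25, and TRIM4 had the same ratio.

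TNF was compared with control to ask which TRIM genes respond to it. Of the 53 tested members 13 rose and 4 fell, by edgeR's quasi-likelihood test at an adjusted p below 0.05. The share that rose was 24.5% of members, where 8.24% of all genes tested were called higher, and the share that fell was 7.55%, where 6.44% of all genes were called lower. The median log2 fold change was 0.14 over the members and -0.02 over all genes. Every TNF library lay above every control library for 20 of the 53 and below for 11, called or not. Lack of overlap alone thus sets no member apart, and its share over all genes is not given here. The group with the most risers was the interferon and antiviral TRIMs, of which 7 of 11 rose and none fell, with a median of 0.74. Among the stress, epithelial and tumour-related TRIMs 4 of 7 rose, while 2 of 4 chromatin TRIMs fell. These lists were chosen with earlier results of these data known, so their counts describe the lists and do not test them.

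TRIM22, an interferon-induced ligase that restricts several viruses, had 4.07, 4.25 and 5.5 CPM in the control libraries and 59.9 and 80.2 CPM in the TNF libraries. Every TNF library lay more than 10 times above every control library. Its log2 fold change was 3.93 ± 0.19 (SE, n = 2 and 3), with an adjusted p of 1.37e-07 in edgeR's quasi-likelihood test. TRIM22 had the largest rise of the members. It stood at 0.731 FPKM in control cells, below most tested members.

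TRIM5 and TRIM6 lie beside TRIM22 on chromosome 11. TRIM5, which binds incoming retroviral capsids, had 35.4, 33.9 and 37.2 CPM in control and 87.1 and 80.0 CPM with TNF. TRIM6, which builds free ubiquitin chains that activate the kinase IKKepsilon, had 2.99, 2.81 and 2.94 CPM in control and 10.2 and 7.67 CPM with TNF. Neither gene overlapped between the groups. On the log2 scale the fold changes were 1.23 ± 0.12 for TRIM5 and 1.62 ± 0.19 for TRIM6, with adjusted p-values of 5.69e-05 and 0.000191 in edgeR's test. TRIM34, the fourth gene of this cluster and a capsid-binding partner of TRIM5, had 11.5, 15.2 and 11.1 CPM in control and 13.1 and 21.4 CPM with TNF. Its groups overlapped and it was not called.

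In the deposited table the cluster runs from TRIM6 (chr11:5596109-5612958) and TRIM34 (chr11:5619764-5644398), both on the plus strand, to TRIM5 (chr11:5663195-5938619, minus strand) and TRIM22 (chr11:5689697-5737089, plus strand). The whole 47393-base span of TRIM22 lies inside that of TRIM5 on the opposite strand. Their exons share 0 bases in GENCODE v29, where both genes have another start or end than in the deposited table. The library kit marks strand, but how strand was set in counting is not known from the labels or the table. By the GENCODE v29 exons, reads from introns of one could thus count towards the other only if strand was ignored. The readthrough gene TRIM6-TRIM34 had counts in 2 libraries and at most 0.198 CPM.

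TRIM21, the cytosolic antibody receptor that targets antibody-coated particles for degradation, had 32.1, 34.4 and 31.2 CPM in control and 99.9 and 64.0 CPM with TNF. TRIM69, a ligase that restricts vesicular stomatitis virus, had 16.6, 18.6 and 16.8 CPM in control and 66.2 and 46.5 CPM with TNF. For both genes TNF library 1 was the higher of the pair and both TNF libraries lay above all controls. The log2 fold changes were 1.33 ± 0.15 and 1.70 ± 0.14, with adjusted p-values of 0.000115 and 1.17e-05 in edgeR's test. TRIM14 had 147, 116 and 168 CPM in control and 270 and 211 CPM with TNF, a log2 fold change of 0.74 ± 0.15 (adjusted p = 0.00796). TRIM25 had 264, 195 and 306 CPM in control and 389 and 335 CPM with TNF, a log2 fold change of 0.51 ± 0.15 (adjusted p = 0.0423). Control library 2 was the lowest of its group for both, and the groups did not overlap. TRIM26, TRIM38 and TRIM56, the remaining members of this list with TRIM34, were not called.

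**Figure D2:**
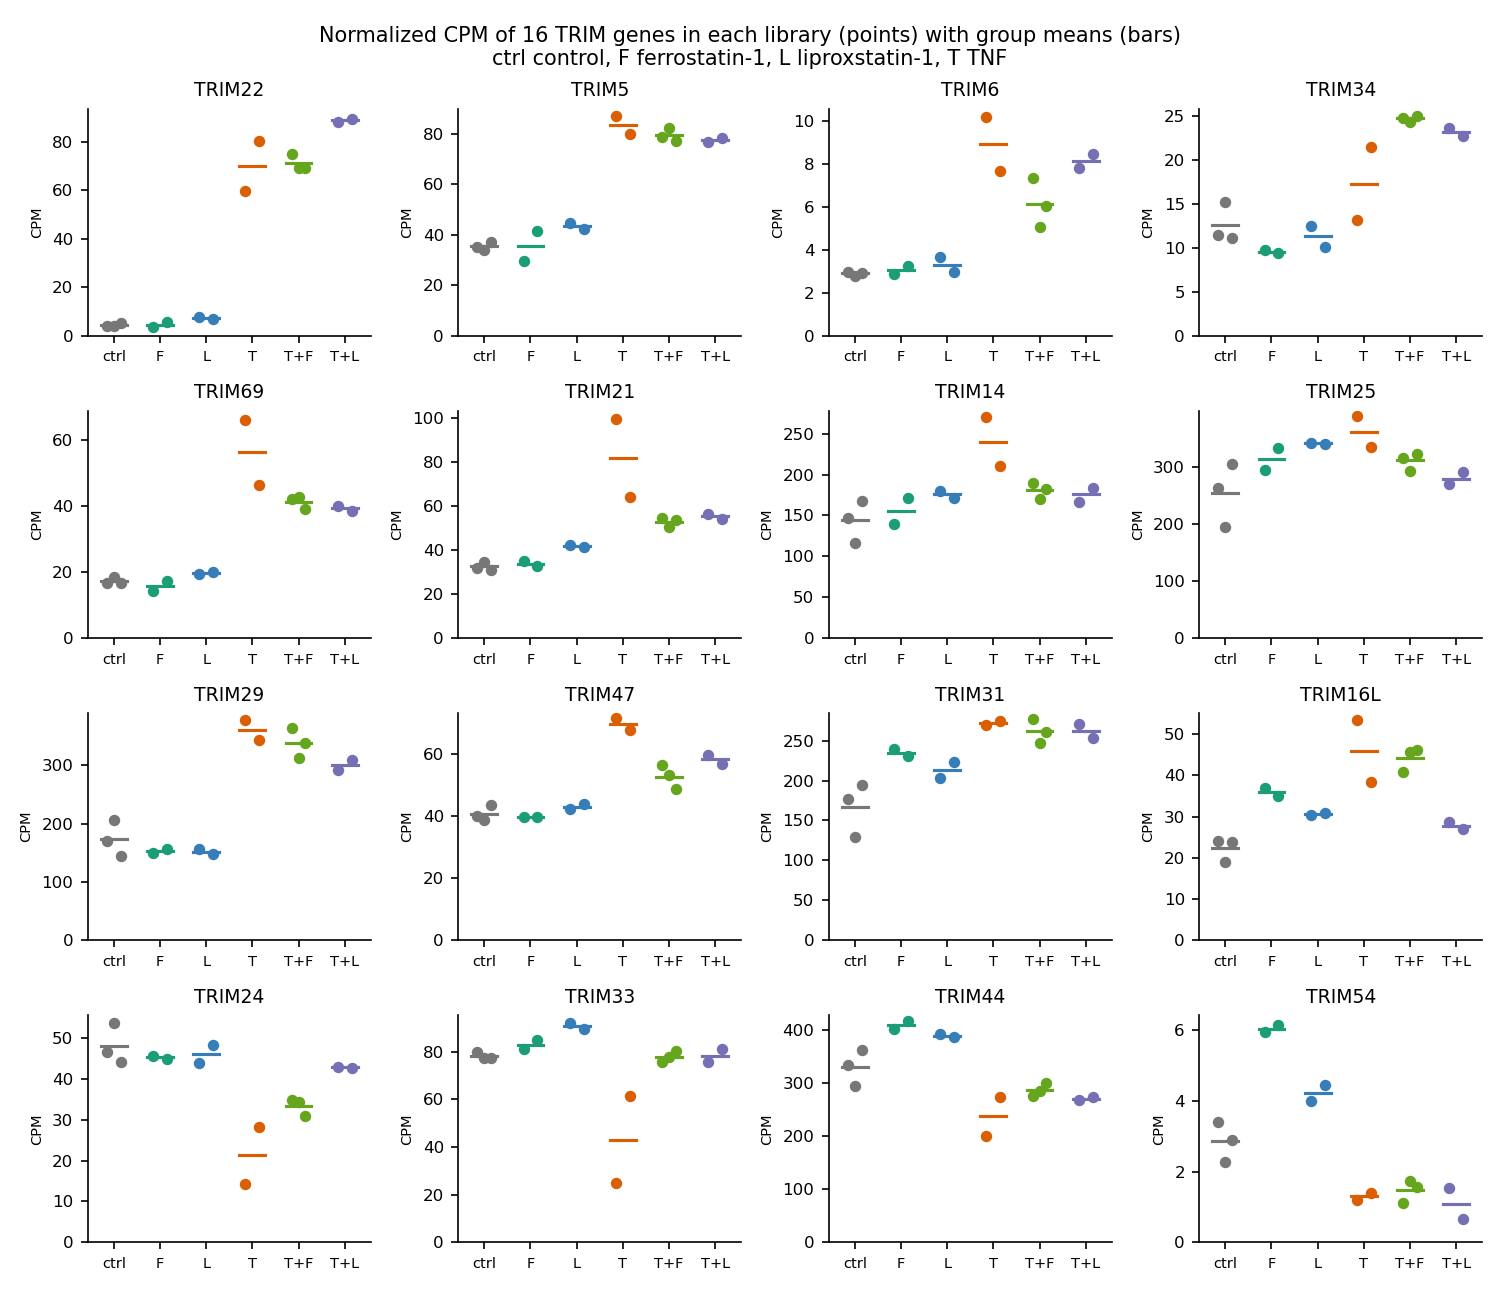
CPM of 16 TRIM genes in each library (points), with group means (bars), for control (ctrl), ferrostatin-1 (F), liproxstatin-1 (L), TNF (T) and their combinations, each axis starting at 0. In the panels of TRIM22, TRIM5 and TRIM6 every TNF library lies above every library without TNF, and in those of TRIM24 and TRIM33 TNF library 1 is the lowest point, at 14.2 and 25.1 CPM.

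Promoter windows were searched because several of these genes are known interferon targets. RefSeq gave windows of 300 bases, 250 before to 50 after the start, on GRCh38.p14 for 47 of the 59 members, and none for TRIM22. An ISRE-type motif, GAAANNGAA on either strand, was in 8.11% of 35116 such windows and in 13.6% of the 66 windows of members. It was in 5 of the 10 windows of members that rose with TNF (50.0%) and in 3 of the 46 windows of tested members that were not called (6.52%). A GAS-type motif, TTCNNNGAA, was in 7.66% of all windows, in 16.7% of those of members, in 1 of those 10 (10.0%) and in 7 of those 46 (15.2%). A kappaB motif was in 5.91% of all windows, in 3.03% of those of members, in 1 of those 10, that of TRIM31, and in 1 of those 46 (2.17%). The 4 ISRE-type matches of antiviral risers, and that of TRIM34, are shown as examples from the interferon and antiviral TRIMs. TRIM26, of the same list and not called, also had a match, which is not printed. Capitals mark the match, overlapping matches are merged, and each run reads 5′ to 3′ on the gene's strand. A match is a description of letters, not a binding site.
TRIM5: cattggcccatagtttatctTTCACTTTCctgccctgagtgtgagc
TRIM14: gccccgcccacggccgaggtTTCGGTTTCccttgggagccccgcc
TRIM21: ctgagcgGAAACTGAAAGTGAAataggga
TRIM69: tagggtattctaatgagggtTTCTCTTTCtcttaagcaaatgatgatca
TRIM34: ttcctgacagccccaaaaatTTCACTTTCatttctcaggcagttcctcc

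The matches began 26 bases before the start in TRIM5 (chr11:5685075-5685120, minus strand), 25 before it in TRIM14 (chr9:98119223-98119267, minus strand), 61 before it in TRIM69 (chr15:44736447-44736495, plus strand) and 89 before it in TRIM34 (chr11:5624892-5624940, plus strand). That of TRIM21 (chr11:4393664-4393692, minus strand) spans bases 18 to 32 of the transcript. TRIM5 and TRIM34 share the same matched letters. The fifth match among the risers was in TRIM16, and the windows of TRIM6, TRIM10, TRIM25, TRIM31 and TRIM47 held none. Of the members that fell, TRIM44 had a match. Among tested members not called, TRIM2 and TRIM26 had a match besides TRIM34. That of TRIM26 began 193 bases before the start. TRIM26 had a log2 fold change with TNF of 0.13 ± 0.12 (adjusted p = 0.511 in edgeR's test).

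Among the stress and epithelial members, TRIM29 (also ATDC), which is enriched in epithelia and reported to restrain innate signalling, had 171, 206 and 145 CPM in control and 378 and 343 CPM with TNF. TRIM47, first described as a gene raised in astrocytoma, had 40.1, 38.7 and 43.5 CPM in control and 71.6 and 67.9 CPM with TNF. Both genes were clear of overlap and their TNF libraries were close to each other. TNF raised them by log2 fold changes of 1.05 ± 0.13 for TRIM29 and 0.78 ± 0.09 for TRIM47, with adjusted p-values of 0.00021 and 0.000206 in edgeR's test.

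TRIM16, which acts with galectin-3 in the autophagy of damaged membranes, had 46.6, 26.3 and 47.1 CPM in control and 110 and 67.0 CPM with TNF. Its shortened copy TRIM16L had 24.2, 18.9 and 23.8 CPM in control and 53.4 and 38.5 CPM with TNF. The 2 genes are near-identical in part, so how their reads were divided is uncertain. In both, control library 2 was lowest and TNF library 1 highest. Their log2 fold changes were 1.15 ± 0.26 (adjusted p = 0.0144) and 1.04 ± 0.14 (adjusted p = 0.000602) in edgeR's test.

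TRIM31 and TRIM10 lie in the TRIM cluster of the major histocompatibility region on chromosome 6, with TRIM40, TRIM15, TRIM26 and TRIM39. TRIM31 had 177, 129 and 194 CPM in control and 270 and 275 CPM with TNF, a log2 fold change of 0.71 ± 0.14 (adjusted p = 0.00565 in edgeR's test). TRIM10, known from red cell differentiation, had 9.0, 7.54 and 8.81 CPM in control and 14 and 12.7 CPM with TNF, a log2 fold change of 0.66 ± 0.14 (adjusted p = 0.00814). Both TNF libraries were above all controls for each gene. TRIM15, TRIM26 and TRIM39 were not called, and TRIM40 was too low to test.

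The members that fell included 2 of the 4 chromatin TRIMs. TRIM24, a bromodomain coregulator of nuclear receptors, had 46.5, 53.5 and 44.0 CPM in control and 14.2 and 28.3 CPM with TNF. TRIM33, which ubiquitinates SMAD4 and binds histone marks, had 79.7, 77.2 and 77.3 CPM in control and 25.1 and 61.2 CPM with TNF. TNF library 1 was the lower of the pair for both, by 2.00 and 2.44 times. The log2 fold changes were -1.18 ± 0.22 for TRIM24 and -0.86 ± 0.26 for TRIM33, with adjusted p-values of 0.00487 and 0.044 in edgeR's test. TRIM28 had 473, 473 and 472 CPM in control and 522 and 517 CPM with TNF and was not called, nor was TRIM66. In bulk RNA, fewer cells expressing a gene and less of its RNA per cell cannot be told apart.

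TRIM44, which has a ubiquitin-protease type zinc finger in place of a RING and stabilizes MAVS, had 334, 295 and 362 CPM in control and 201 and 274 CPM with TNF. TRIM54, a muscle RING protein that binds microtubules, had 3.41, 2.27 and 2.9 CPM in control and 1.2 and 1.39 CPM with TNF. Both TNF libraries lay under all controls in each gene, and TRIM54 was among the low members at 0.989 FPKM in control. The log2 fold changes were -0.47 ± 0.12 and -1.14 ± 0.33, with adjusted p-values of 0.0245 and 0.0365 in edgeR's test. None of the 5 tested members with NHL, MATH or filamin domains was called.

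**Figure D3:**
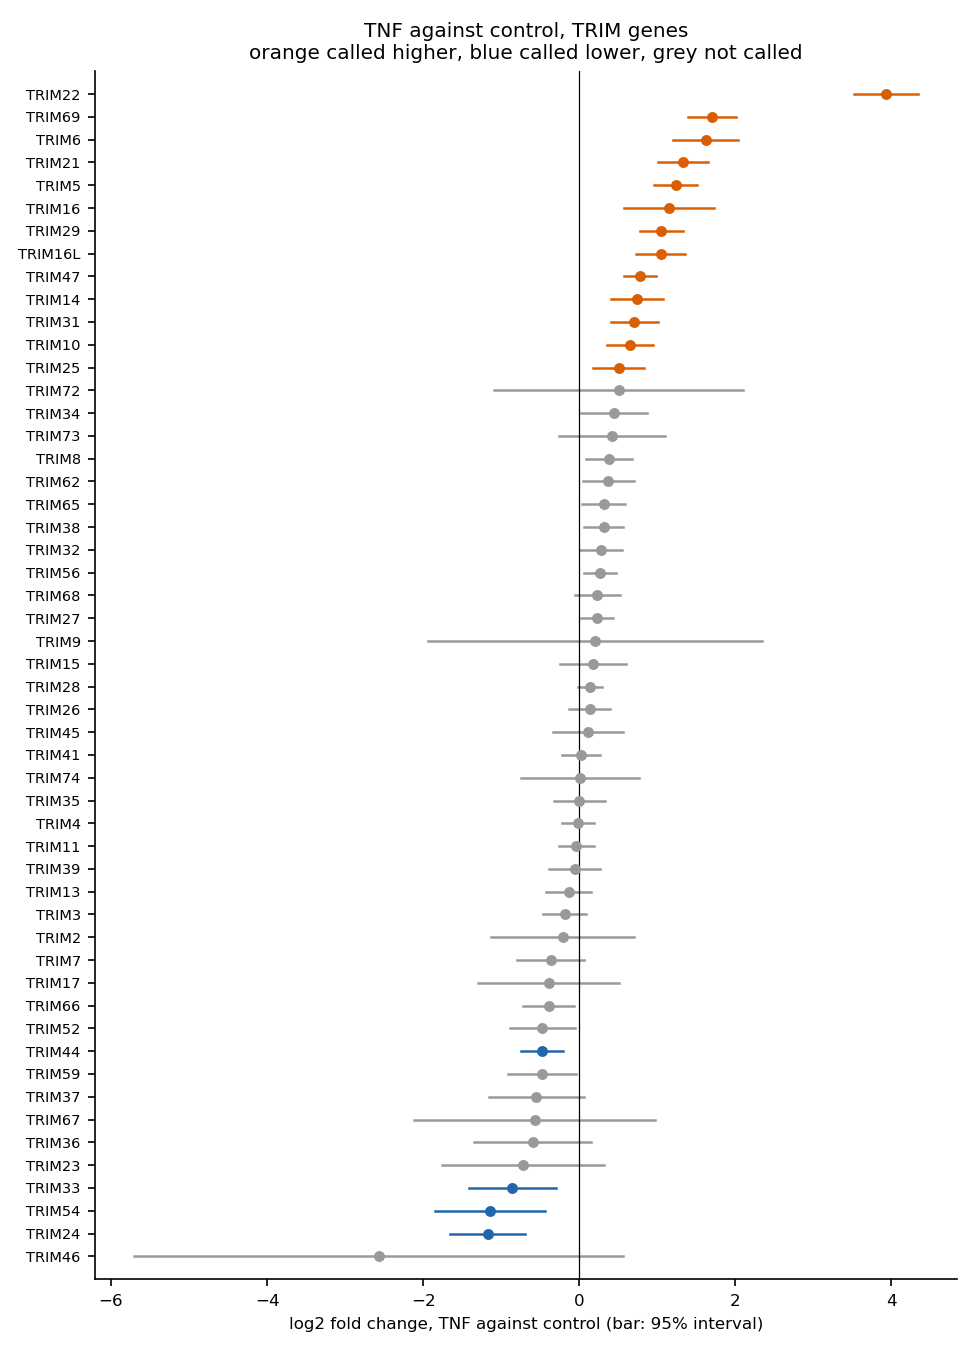
Log2 fold change of TNF against control with its 95% interval for 52 tested TRIM genes (TRIM63 is left out), orange where called higher, blue where called lower and grey where not called. TRIM22 stands apart at 3.93, the next being TRIM69 at 1.70, and the members called lower lie between -0.47 and -1.18.

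Among members called in TNF against control, the 2 TNF libraries stood furthest apart for TRIM24 and TRIM33, both called lower. Those of TRIM54, also called lower, were close, at 1.2 and 1.39 CPM. Of 46 members with a control mean of at least 1 CPM, 5 were at least 2-fold higher in TNF library 3 than in library 1, and 0 were that far the other way. They were TRIM24 and TRIM33, the GTPase-containing TRIM23 with 1.24 and 6.84 CPM in libraries 1 and 3, the neuronal NHL protein TRIM2 with 6.76 and 27.3 CPM, and the centriole and chromatin regulator TRIM37 with 20.1 and 53.4 CPM. These 5 are 10.9% of the members, below the 14.4% of all genes. The number called depended on which TNF library was left out, and such a fit leaves 1 library in the group. Over all fits with a library left out, the log2 fold change of TRIM24 ran from -1.76 to -0.76. That of TRIM33 ran from -1.64 to -0.35.

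The calls of TRIM5, TRIM6, TRIM21, TRIM22, TRIM29 and TRIM69 were kept in all 18 other fits, including each library left out. The calls of TRIM14 and TRIM16 were lost without TNF library 1, that of TRIM44 without it or control library 1 or 3. TRIM25 and TRIM33 kept theirs in 2 and TRIM54 in 6 of 14 fits with a library left out. When control and TNF libraries were fitted alone, TRIM5, TRIM6, TRIM21, TRIM22, TRIM29 and TRIM69 were the only members called.

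**Figure D4:**
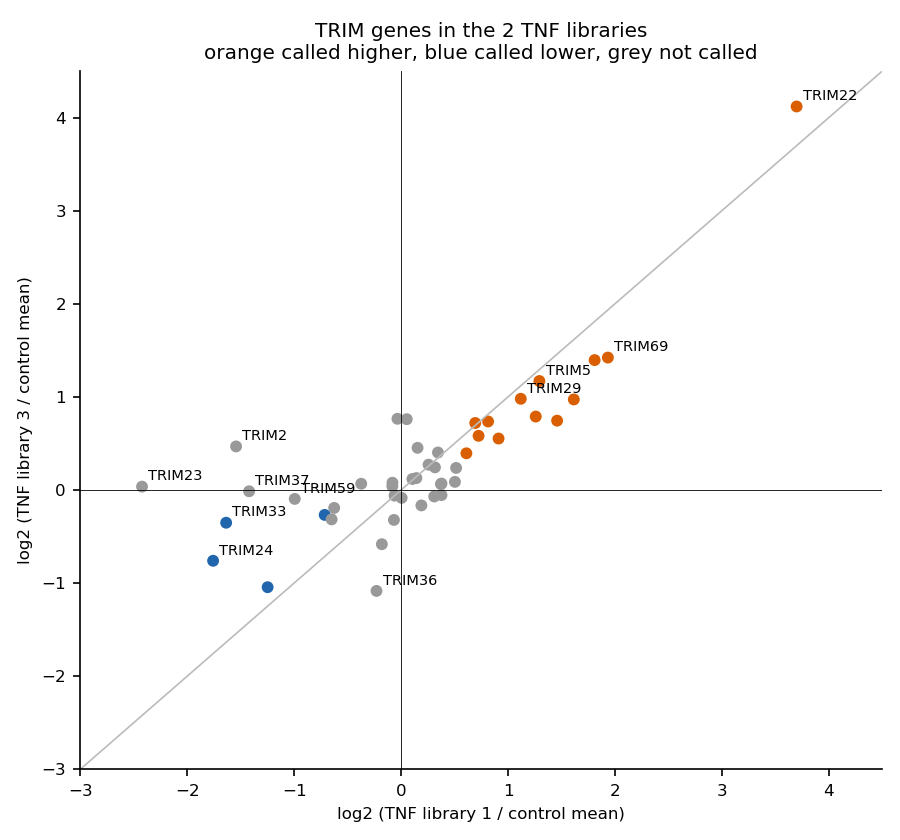
Log2 ratio of each TNF library to the control mean for the 46 TRIM genes with a control mean of at least 1 CPM, library 1 on the horizontal and library 3 on the vertical axis, with the line of equality and colours as called. TRIM22 lies at 3.70 and 4.12, while TRIM23, TRIM2, TRIM37, TRIM33 and TRIM24 lie far left of the line.

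The genes around TRIM function were followed in lists of their own, also chosen with earlier results of these data known. For comparison, 8.24% of all genes tested were called higher with TNF and 6.44% lower, with a median log2 fold change of -0.02. Of 20 genes of interferon signalling 12 rose with TNF and none fell, with a median log2 fold change of 1.01. The receptor chain IFNAR2 averaged 15.1 ± 0.274 CPM in control (SD, n = 3) and 45.1 ± 5.75 with TNF (SD, n = 2). It rose by 1.58 ± 0.10 (SE) on the log2 scale. The transcription factor STAT2 rose by 1.49 ± 0.13, the factor IRF2 by 0.93 ± 0.11 and the receptor chain IFNGR1 by 1.29 ± 0.16 on the log2 scale. Of 17 sensors, substrates and partners of TRIMs 8 rose and 1, TAB3, fell. They included IKBKE, the kinase that TRIM6 chains activate, which rose from 14.1 ± 0.785 to 72.2 ± 8.08 CPM (log2 2.36 ± 0.10), the DNA sensor CGAS (0.98 ± 0.12), the RNA sensor DHX58 (1.36 ± 0.17) and the adaptor TRAF3 (0.95 ± 0.13).

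The machinery of ubiquitin supply was followed as well, in lists chosen in the same way. Again, 8.24% of all genes tested were called higher and 6.44% lower. Of 18 E2 enzymes and ubiquitin genes 5 rose and none fell, with a median log2 fold change of 0.13. Those with the smallest p were the E2 enzymes UBE2E1 (0.58 ± 0.11) and UBE2L3 (0.40 ± 0.09) and the ubiquitin gene UBB (0.40 ± 0.09). Of 5 genes for conjugation of the ubiquitin-like modifier ISG15, 4 rose and none fell. These were the activating enzyme UBA7 (1.89 ± 0.12), the E2 enzyme UBE2L6 (2.42 ± 0.18), the protease USP18 (1.95 ± 0.22) and ISG15 itself (1.69 ± 0.25). All of these named risers had an adjusted p below 0.05 in edgeR's test.

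Each compound was also set against control to see whether it moved TRIM genes by itself. With ferrostatin-1 no member was called by edgeR, where 0.564% of all genes were called. There were 7 members at an unadjusted p below 0.05, and DESeq2 called 4. The lowest adjusted p, 0.0608, was that of TRIM16L, which had 37.0 and 34.9 CPM with ferrostatin-1, above the 18.9 to 24.2 CPM of the controls. TRIM45, a filamin-domain member known to restrain MAPK signalling, had 2.69 and 1.88 CPM, below the 4.07 to 5.72 CPM of the controls, with an adjusted p of 0.0623. TRIM54 had 5.94 and 6.15 CPM against 2.27 to 3.41 CPM, with an adjusted p of 0.152.

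With liproxstatin-1 no member was called by edgeR, where 0.0586% of all genes were called. There were 11 members at an unadjusted p below 0.05, and DESeq2 called 3. The lowest adjusted p was 0.137, for TRIM73, a copy of TRIM50 whose reads may be shared with TRIM74, at 0.42 and 0.445 CPM against 1.17 to 1.55 CPM in control. TRIM45 had 2.08 and 2.64 CPM here, again below all controls. TRIM22 had 7.82 and 7.08 CPM, above all controls, and was not called (adjusted p = 0.192).

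Set against each other at the matched 20 uM, the compounds gave no called member in edgeR's test, where 0.104% of all genes were called. There were 3 members at an unadjusted p below 0.05, and DESeq2 called 0. The lowest adjusted p was 0.399, for TRIM22, with a log2 difference of liproxstatin-1 minus ferrostatin-1 of 0.68 and a 95% interval of 0.24 to 1.13. That interval does not cover 0, so likeness of the compounds for TRIM22 is not shown. For TRIM25 the interval was -0.24 to 0.48 and for TRIM21 -0.04 to 0.67.

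TNF with a compound was set against TNF alone to ask what the compound did in cells under TNF. With ferrostatin-1 no member rose, where 1.77% of all genes were called higher, and 5 members fell, which is 9.43% of members where 3.75% of all genes were called lower. TRIM21 fell from 99.9 and 64.0 CPM to 54.7, 50.6 and 53.5 CPM, and stayed above the 31.2 to 34.4 CPM of the controls. TRIM10 fell from 14 and 12.7 CPM to 8.81, 8.13 and 7.93 CPM, all within the control range of 7.54 to 9.0 CPM. TRIM47 fell from 71.6 and 67.9 CPM to 56.5, 53.2 and 48.8 CPM, still above all controls.

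The log2 fold changes were -0.63 ± 0.15 for TRIM21, -0.68 ± 0.14 for TRIM10 and -0.40 ± 0.09 for TRIM47, with adjusted p-values of 0.0357, 0.0233 and 0.0357 in edgeR's test. TRIM8, a ligase of TNF and STAT signalling, fell from 167 and 137 CPM to 110, 106 and 101 CPM (log2 -0.53 ± 0.13, adjusted p = 0.0445). TRIM68, a relative of TRIM21, fell from 35.3 and 28.4 CPM to 23.8, 21.0 and 20.7 CPM (log2 -0.54 ± 0.13, adjusted p = 0.041). In all 5 the TNF library 1 was the highest value and the groups did not overlap. Of the 53 tested members, 18 lay wholly lower with ferrostatin-1 added and 10 wholly higher, called or not. The share of all genes without overlap is not given here. The calls of all 5 were lost without TNF library 1. They were also lost when the compared groups were fitted alone, and without any 1 of the TNF with ferrostatin-1 libraries. TRIM10 kept its call in 10 of the 14 fits with a library left out, whereas TRIM8, TRIM21 and TRIM47 kept theirs in 3 and TRIM68 in 2, with losses also without control library 1 or any library given a compound.

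With liproxstatin-1 added to TNF no member was called by edgeR, where 0.343% of all genes were called. There were 16 members at an unadjusted p below 0.05, and DESeq2 called 10. The lowest adjusted p was 0.0673, for TRIM16L, which had 28.6 and 27.0 CPM against 53.4 and 38.5 CPM with TNF alone. TRIM24 had 42.8 and 42.7 CPM, above the 14.2 and 28.3 CPM of TNF alone and close under the 44.0 to 53.5 CPM of control, with an adjusted p of 0.074. TRIM21 had 56.5 and 54.4 CPM, near its values with ferrostatin-1, with an adjusted p of 0.0975. The number called in this comparison depended on which TNF library was left out, and the share of all genes in those fits is not given here.

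Under TNF, the compounds set against each other gave no called member in edgeR's test, where 0.766% of all genes were called. There was 1 member at an unadjusted p below 0.05, and DESeq2 called 1. This was TRIM16L, with 28.6 and 27.0 CPM in liproxstatin-1 and 40.9, 45.8 and 46.2 CPM in ferrostatin-1. Its log2 difference was -0.67, with a 95% interval of -0.998 to -0.348 and an adjusted p of 0.074. TRIM22 had 88.3 and 89.4 CPM against 75.2, 69.2 and 69.4 CPM, an interval of -0.07 to 0.70. TRIM24 had 42.8 and 42.7 CPM against 34.8, 34.4 and 30.8 CPM, an interval of -0.10 to 0.82.

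The response to TNF could be measured again in cells kept with a compound, since those comparisons share no library with TNF against control. Their tests are not independent of it, because the spread was estimated once over all 14 libraries. With ferrostatin-1 in both arms 12 members rose and 3 fell, 22.6% and 5.66% of members, where 8.76% and 9.36% of all genes were called higher and lower. With liproxstatin-1 in both arms 10 rose and 3 fell, 18.9% and 5.66% of members, where 7.57% and 7.03% of all genes were called. The median log2 fold change of the members was 0.15 and 0.12, where that of all genes was 0.02 and 0.06. Of the 11 interferon and antiviral TRIMs 7 rose with ferrostatin-1 and 5 with liproxstatin-1, and none fell.

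TRIM5, TRIM6, TRIM22, TRIM29, TRIM47 and TRIM69 rose with TNF in all 3 backgrounds. The call of TRIM47 with liproxstatin-1 depended on single libraries. TRIM22 had 3.7 and 5.58 CPM with ferrostatin-1 and 75.2, 69.2 and 69.4 CPM with TNF added, and 7.82 and 7.08 CPM with liproxstatin-1 and 88.3 and 89.4 CPM with TNF added. Its log2 fold changes were 3.94 ± 0.22 and 3.58 ± 0.22. TRIM5 had 29.5 and 41.7 CPM with ferrostatin-1, 44.7 and 42.3 CPM with liproxstatin-1, and 77.0 to 82.4 CPM in the 5 libraries with TNF and a compound. TRIM29 had 148 to 156 CPM in the 4 libraries with a compound alone and 292 to 364 CPM in those with TNF and a compound. None of these genes overlapped between the arms of either comparison. Of the 53 tested members, 21 lay wholly higher with TNF and 12 wholly lower in the ferrostatin-1 background, called or not. In the liproxstatin-1 background 24 and 16 did, and the share of all genes is not given here.

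TRIM44 and TRIM54 fell in all 3 backgrounds. TRIM54 had 5.94 and 6.15 CPM with ferrostatin-1 and 1.12, 1.73 and 1.56 CPM with TNF added, a log2 fold change of -2.04 ± 0.31 (adjusted p = 0.000894 in edgeR's test). With liproxstatin-1 it had 3.99 and 4.45 CPM, and 1.53 and 0.667 CPM with TNF added, a log2 fold change of -1.95 ± 0.36 (adjusted p = 0.00395). TRIM44 changed by -0.51 ± 0.12 and -0.53 ± 0.13 on the log2 scale, from 387 to 417 CPM in the 4 libraries with a compound alone to 268 to 300 CPM with TNF added. The lower values with TNF were thus seen in separate libraries for both genes.

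TRIM34, TRIM45, TRIM52 and TRIM73 were called higher with both compounds and not without one. TRIM34 went from 9.7 and 9.45 CPM to 24.7, 24.3 and 25.0 CPM with ferrostatin-1 (log2 1.37 ± 0.21) and from 12.5 and 10.1 CPM to 23.6 and 22.7 CPM with liproxstatin-1 (1.04 ± 0.22). Without a compound, TNF library 3 was at 21.4 CPM and library 1 at 13.1 CPM. TRIM45 went from 2.69 and 1.88 CPM to 4.28, 4.01 and 3.94 CPM, and from 2.08 and 2.64 CPM to 5.03 and 5.55 CPM. These end values lay near the 4.07 to 5.72 CPM of control cells, so the rises started from lower levels. TRIM52, which is little more than a RING and a B-box, went from 18.3 and 13.5 CPM to between 24.0 and 26.8 CPM, and from 17.1 and 13 CPM to 26.1 and 24.6 CPM. It had 20.2 to 29.3 CPM in control. TRIM52 shares 1868 exonic bases in GENCODE v29 with CTC-338M12 on the opposite strand, so its values are uncertain if strand was ignored.

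TRIM73 rose by 1.04 ± 0.33 and 2.10 ± 0.37 on the log2 scale, from at most 1.13 CPM. TRIM56, a ligase at STING, was called higher with ferrostatin-1 only, at 0.31 ± 0.10. The calls of TRIM73 and TRIM56 with ferrostatin-1 were kept in 3 and 5 of 14 fits with a library left out. Both were lost without the filter, while the liproxstatin-1 call of TRIM73 was kept throughout. TRIM21 rose with ferrostatin-1 by 0.65 ± 0.15 and not with liproxstatin-1 (0.40 ± 0.16, adjusted p = 0.131 in edgeR's test). TRIM11, a ligase linked to selective autophagy, fell with ferrostatin-1 only (-0.41 ± 0.10), and was at -0.36 ± 0.11 with liproxstatin-1, with an adjusted p of 0.0505. TRIM15, a focal adhesion protein, fell with liproxstatin-1 only (-0.95 ± 0.21), from 23.5 and 22.3 CPM to 11.6 and 12.2 CPM.

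TRIM10, TRIM14, TRIM16, TRIM16L, TRIM25 and TRIM31 were called higher without a compound and in neither of the others. For TRIM14 the log2 fold change was 0.22 ± 0.16 with ferrostatin-1 and -0.00 ± 0.17 with liproxstatin-1, and for TRIM25 it was -0.01 ± 0.15 and -0.29 ± 0.17. TRIM31 stood at 203 to 239 CPM in the 4 libraries with a compound alone, above the 129 to 194 CPM of control, and at 247 to 277 CPM with TNF and a compound. TRIM24 and TRIM33 were called lower without a compound only. TRIM33 had 75.6 to 81.0 CPM in the 5 libraries with TNF and a compound, and 77.2 to 79.7 CPM in control.

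**Figure D5:**
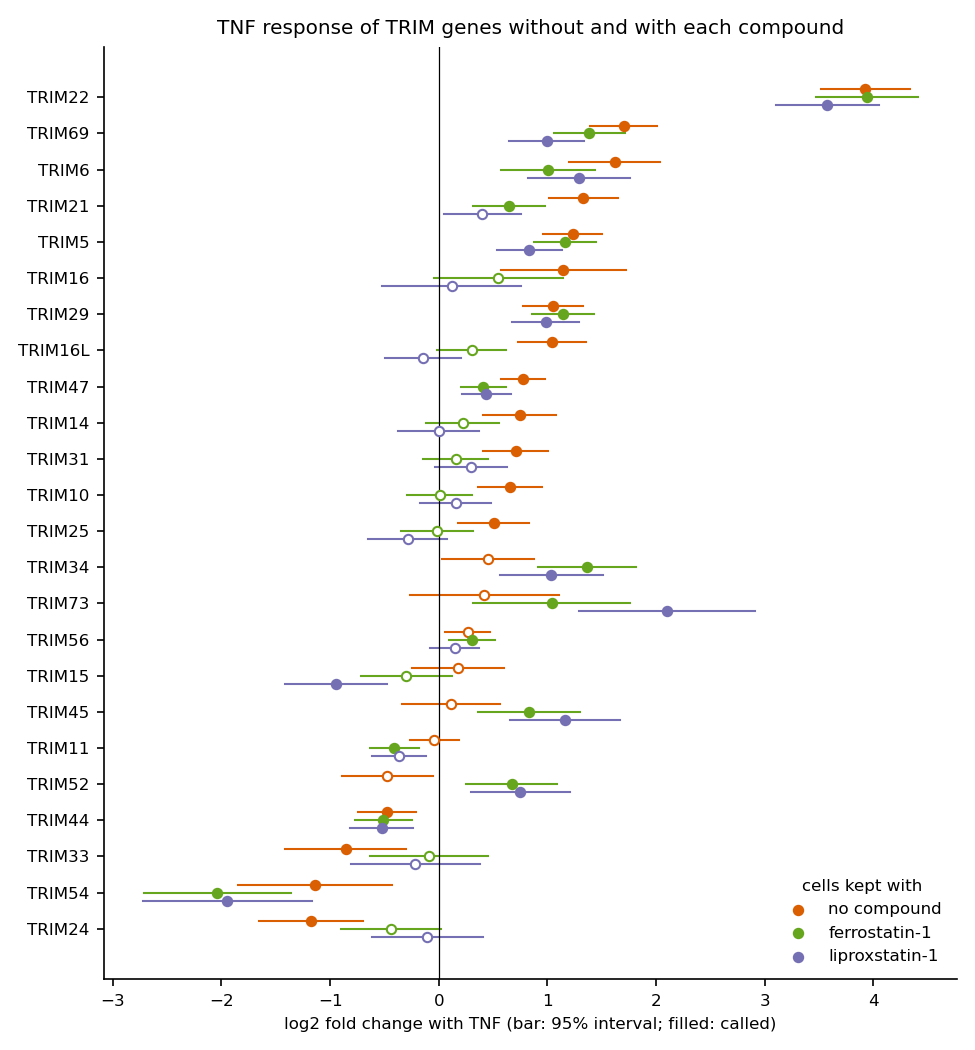
Log2 fold change with TNF and its 95% interval for the 24 TRIM genes called in at least 1 of 3 backgrounds: no compound (orange), ferrostatin-1 in both arms (green) and liproxstatin-1 in both arms (purple), filled where called. TRIM22 lies at 3.93, 3.94 and 3.58, and the 3 points of TRIM52, TRIM73, TRIM45, TRIM16L and TRIM24 are spread more widely than those of TRIM29 or TRIM44.

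Whether a compound altered the TNF response was tested by the interaction. For ferrostatin-1 no member passed edgeR's test, where 0.00451% of all genes passed, with 17 members at an unadjusted p below 0.05 and 7 called by DESeq2. For liproxstatin-1 no member passed, where 0.0% of all genes passed, with 18 members at an unadjusted p below 0.05 and 12 called by DESeq2. The lowest adjusted p-values were 0.101 for TRIM52 with ferrostatin-1 (log2 1.14, 95% interval 0.55 to 1.74) and 0.0985 for TRIM16L with liproxstatin-1 (-1.19, interval -1.66 to -0.72). So a member called in one background and not in another is not shown to respond differently. How many members passed these tests depended on which TNF library was left out, and the share of all genes in those fits is not given here.

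The calls with a compound in both arms depended on single libraries as well. In the liproxstatin-1 background, those of TRIM15, TRIM44, TRIM47 and TRIM52 were lost without any 1 library of either arm. Without ferrostatin-1 library 1, 8 members were called in the ferrostatin-1 background, and without library 3, 9. In the liproxstatin-1 background 8 were called without liproxstatin-1 library 1 or without either library with TNF and liproxstatin-1. Leaving out TNF library 1 or 3, which belong to neither arm but enter the shared estimate of the spread, raised the number called in each background. The cause was not tested. The shares of all genes called in these fits are not given here, so the counts are not results about TRIM genes in particular.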

How the data were processed

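Per the labels' protocols, poly(A) RNA was made into strand-marking libraries and sequenced as read pairs. The authors deposited whole-number counts per gene and, beside them, FPKM values for the same 14 libraries. Tools named in the submitters' processing notes, without roles, are HISAT2 2.0.4, cutadapt 1.9, DESeq2, StringTie 1.3.4d and edgeR. Build, annotation, counter and strand setting: not given in the sources used here. GENCODE v29 holds the IDs of all 59 members, 20 of them at identical positions, and positions of genes are those of the deposited table. Deposited columns of the ferrostatin-1, liproxstatin-1 and TNF groups carry the numbers 1 and 3 where the titles carry 1 and 2, so these libraries were matched by group only and are called by column number. The design speaks of 3 replicates per group.

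Counts were fitted in edgeR 4.0.16 (R 4.3.3) by glmQLFit and glmQLFTest with TMM scaling (factors 0.947 to 1.05) and filterByExpr, over all genes and all 14 libraries without a block, in 11 comparisons. Calls have a Benjamini-Hochberg adjusted p below 0.05 over all genes tested. CPM divides counts by the TMM-scaled library total, and SE and 95% intervals come from the fit. FPKM served only for levels between genes, and the 6 FPKM columns of the groups matched without numbers were not used. The scripts were tested on simulated data. Other settings tried were scaling by relative log expression, no filter, DESeq2 1.42.0, the compared groups alone, a replicate block and each library left out. Named were all members called in any comparison, up to 4 others by FPKM, those that failed the filter, and up to 4 called genes of each other list by smallest p, with further members named after their values were seen. Members and lists were chosen with earlier results of these data known. Some 35 members overlap another gene. On the opposite strand, TRIM14 (422 with NANS), TRIM25 (80 with DGKE), TRIM47 (1618 with AC087289) and others shared exonic bases in GENCODE v29. Their values are uncertain if strand was ignored. On the same strand, TRIM73 (391 with NSUN5P1, 321 with STAG3L1), TRIM16 (1327 with AC005324) and others shared them, and their values are uncertain under any strand setting. NSUN5P1 averaged 62.2 CPM where TRIM73 averaged 1.39 CPM. A planned search of protein sequences for the RING pattern was not done.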

Additional observations from a re-analysis of the deposited data

How the results depend on the processing

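No member's call reversed its direction in any alternative. Fitting the compared groups alone called 6 members for TNF against control, 0 for TNF with ferrostatin-1 against TNF, 3 for TNF with liproxstatin-1 against TNF with ferrostatin-1, and 26 and 23 for the TNF response with ferrostatin-1 and with liproxstatin-1, where the fit over all libraries called 17, 5, 0, 15 and 13. DESeq2 called 4 members for ferrostatin-1 against control, 3 for liproxstatin-1 against control, 17 and 10 for TNF with ferrostatin-1 and with liproxstatin-1 against TNF, 1 between the compounds under TNF, and 7 and 12 for the interactions with ferrostatin-1 and liproxstatin-1. Without the filter, 1 member was called for TNF with ferrostatin-1 against TNF. Other settings stayed within 1.5 times the count called. The cause of these shifts was not tested, and the shares of all genes called under these settings are not given here.

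Leaving out each library in turn gave 13 to 28 called members for TNF against control, 0 to 2 for each compound against control, 0 to 21 and 0 to 22 for TNF with ferrostatin-1 and with liproxstatin-1 against TNF, 0 to 1 between the compounds under TNF, 8 to 20 for the TNF response with either compound, and 0 to 19 and 0 to 21 for the interactions with ferrostatin-1 and liproxstatin-1. The highest value in each came without TNF library 3, in some cases also without TNF library 1 or another. Where a group was left with 1 library, it was taken to vary like the others. Shares of all genes called in these fits are not given here, so the counts are not results about TRIM genes in particular. The counts between the compounds without TNF stayed at 0.

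A replicate block could be fitted only for TNF with liproxstatin-1 against TNF with ferrostatin-1, and the fit with the replicate block called 0 members. The same libraries without the block, an alternative added after seeing the data, called 1. Deviations of same-numbered libraries correlated at -0.02 to 0.04 over 7 pairs among the control libraries and those with TNF and a compound, so the numbers do not pair these libraries. The other groups have no usable numbers and were not checked. By other rules for expression, 48 members had at least 1 CPM in 2 or more libraries and 43 averaged at least 1 FPKM.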

Other observations

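Family genes that carry other symbols were outside the rule. PML, the scaffold of nuclear bodies and also called TRIM19, had 79.8, 80.4 and 97.0 CPM in the control libraries and 235 and 208 CPM with TNF, a log2 fold change of 1.37 ± 0.16 with an adjusted p of 0.000155 in edgeR's quasi-likelihood test. It was above all controls in every library with TNF, at 147 to 209 CPM where a compound was present. MID1, which binds microtubules, had 6.18, 8.09 and 6.48 CPM in control and 9.5 and 12.0 CPM with TNF, a log2 fold change of 0.64 ± 0.17 (adjusted p = 0.0244). MEFV, which encodes the inflammasome sensor pyrin, had no count in any of the 7 libraries without TNF. With TNF it had 0.648 and 0.317 CPM, with ferrostatin-1 added 1.86, 1.54 and 1.59 CPM, and with liproxstatin-1 added 0.859 and 0.585 CPM. MID2, a relative of MID1, had 1.23 to 2.21 CPM in control and 0.741 and 1.72 CPM with TNF, and was not called in that comparison.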
